A study of Caenorhabditis elegans with 48 samples.

Results

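The miR-44 family of Caenorhabditis elegans was followed through its 4 guide strands, miR-44-3p, miR-45-3p, miR-61-3p and miR-247-3p, which were taken by name from the 437 mature miRNA strands listed in a count table of 48 small RNA libraries. A miRNA gene gives a hairpin from which a short duplex is cut. One strand of the duplex, the guide, is kept by an Argonaute protein and directs it to matching messenger RNAs, while the other strand, the passenger, is discarded. In this family the guide is the 3p strand and the passenger the 5p strand. Members of a miRNA family share the seed, the stretch near the 5′ end that pairs with targets, and the seed of the miR-44 family is also carried by Drosophila miR-279. In C. elegans, mir-44 and its relatives promote the sperm fate in the hermaphrodite germ line, and mir-61 is switched on by LIN-12/Notch in vulval precursor cells, where its miRNA lowers the Notch antagonist VAV-1. The study placed the decay of miR-247 late in larval life under EBAX-1, a substrate receptor of a ubiquitin ligase.

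The libraries compared lin-28(0) animals, strain HW2706, which carry the CRISPR deletion lin-28(xe192), with WT animals, strain HW1993. LIN-28 binds RNA and holds back the maturation of let-7. Both strains also carried xeSi312, a single-copy transgene in which the broadly active eft-3 promoter drives a luciferase and GFP fusion, so WT here is the reporter strain. Larvae that had hatched without food were grown in liquid with OP50 bacteria at 25 °C and 1000 animals/mL, and 1 library per genotype was made at each hour from 0 to 23 h. The hours of a genotype are read here as samples of a single culture, which the labels do not state. The p-values below thus measure the spread between hourly libraries of 1 culture per genotype and not between cultures.

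Levels are given as CPM, the count of a strand divided by the library's total miRNA count and scaled to 1000000. The lin-28(0) libraries held 2996370 to 15317364 counts and the WT libraries 2315421 to 20757531. The let-7 guide, let-7-5p, stood at 671 to 47208 CPM in lin-28(0) and 7.39 to 1892 CPM in WT, which goes with the labels. All 6 miRNA strands chosen as cell type markers were detected in every library. The lin-28(0) libraries of 1 to 3 h stood apart: miR-228-5p, of glia and seam cells, was at 59883 to 77265 CPM there, against 16743 to 30905 CPM in the other 21 lin-28(0) libraries, and miR-35-3p, of embryo and germ line, at 2993 to 4043 CPM, against 352 to 2263 CPM. The WT library of 2 h held the highest level of the neuronal miR-124-3p, 61.1 CPM, and of the muscle miR-1-3p, 76227 CPM. The other neuronal strand, lsy-6-3p, was at 56.5 CPM there, under its highest WT level of 59.2 CPM. The libraries came from whole larvae, so fewer cells of a type and less RNA per cell cannot be told apart.

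miR-44-3p and miR-45-3p come from separate genes but are known as nearly the same molecule, and their rows moved as 1. miR-44-3p took 74.3% of the sum of both rows over all libraries, and between 74.03% and 74.47% in each. The exact binomial 95% interval of the share held the overall value in 43 of 48 libraries. Intervals of this kind cover counting error only. The authors' counting let a read match several places, and how it then divided reads between the 2 genes cannot be seen in the counts, so the share was not read as the output of either gene. The 2 rows are summed below as miR-44/45-3p, and the rows apart gave average genotype differences with the same sign as the sum.

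**Figure D1:**
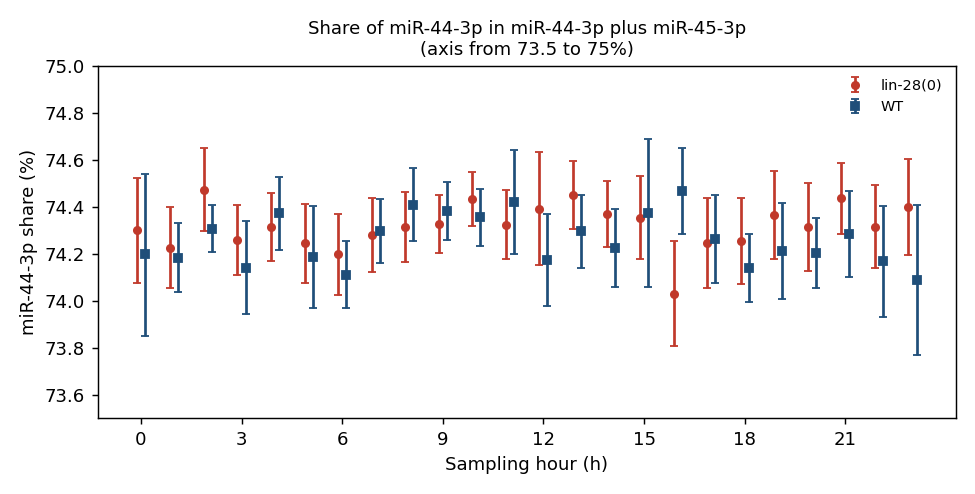
Share of miR-44-3p in the summed count of miR-44-3p and miR-45-3p (%, vertical axis) by sampling hour (horizontal axis), with exact binomial 95% intervals, for lin-28(0) and WT. The share stays between 74.03% and 74.47% in all 48 libraries, in both genotypes and at all hours.

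The family was abundant. Its 4 guides together made up 4.87% ± 1.35 of a lin-28(0) library and 5.26% ± 1.29 of a WT library (SD, n = 24 hours each), with extremes of 2.48% at 2 h and 7.59% at 10 h in lin-28(0), and of 1.61% at 0 h and 7.56% at 9 h in WT. miR-44/45-3p was 69.4% ± 3.8 of the family in lin-28(0) and 67.6% ± 4.82 in WT, miR-61-3p was 30.6% ± 3.8 in lin-28(0) and 32.3% ± 4.81 in WT, and miR-247-3p was 0.0129% in lin-28(0) and 0.0150% in WT. By CPM, the order of the rows was miR-44-3p, miR-61-3p, miR-45-3p and miR-247-3p, and miR-44-3p lay above miR-61-3p, and miR-45-3p below it, in 24 of 24 hours in both genotypes. Since small RNA libraries capture each sequence with its own efficiency, this order is one of counts.

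The level of miR-44/45-3p was 15190 CPM at its lowest, 33893 CPM at the median and 58346 CPM at its highest in lin-28(0), against 10152, 37192 and 55565 CPM in WT. Levels of miR-61-3p had a lowest, median and highest value of 8477, 15228 and 19017 CPM in lin-28(0), and of 5953, 17791 and 21462 CPM in WT. For miR-247-3p the same values were 0.335, 2.20 and 23.6 CPM in lin-28(0) and 0, 2.18 and 31.1 CPM in WT. For each of the 3, the ranges of the 2 genotypes overlapped over most of their length, and the variation was mainly over time.

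**Figure D2:**
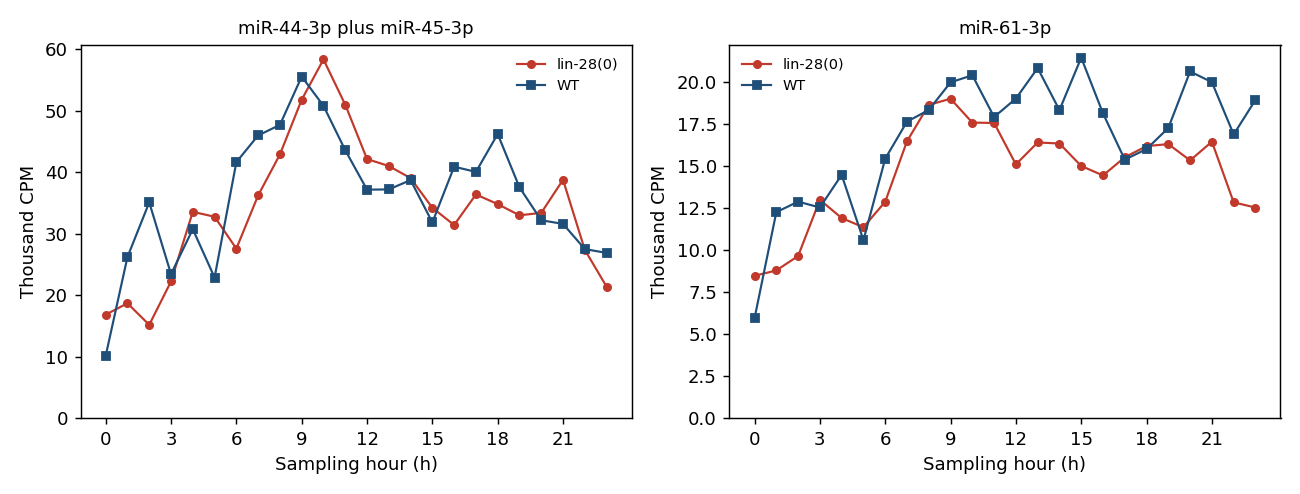
Level of miR-44/45-3p and of miR-61-3p (CPM divided by 1000, vertical axes) by sampling hour (horizontal axis), 1 point per library, for lin-28(0) and WT. Both climb over the first hours, miR-44/45-3p crests at 10 h (58346 CPM) in lin-28(0) and at 9 h (55565 CPM) in WT, and at 16 to 23 h miR-61-3p is lower in lin-28(0) in 6 of 8 hours.

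The first comparison asked whether loss of LIN-28 moved the guides of this family on average over the 24 hours. miR-61-3p fell in lin-28(0): the fitted log2 difference, lin-28(0) minus WT, was -0.24 ± 0.05 (SE, 95% interval -0.34 to -0.13, adjusted p = 7.8e-04), which puts lin-28(0) at 84.7% of WT, and its CPM was lower in lin-28(0) in 18 of 24 hours. miR-44/45-3p (-0.13 ± 0.07, interval -0.27 to 0.00, adjusted p = 0.141, lower in 13 of 24 hours) and miR-247-3p (-0.19 ± 0.17, interval -0.52 to 0.14, adjusted p = 0.411, lower in 13 of 24 hours) did not pass. The threshold throughout was an adjusted p under 0.01 over the 245 strands tested, and 1 of the 3 family guides passed beside 21.6% of all strands, 37 higher and 16 lower in lin-28(0), with a median difference of 0.03. With DESeq2 size factors 33 were higher and 23 lower, and with limma 46 were higher and 12 lower. The call for miR-61-3p was kept with any 1 library left out (-0.26 to -0.21), with the sampling hour as a block (-0.24, adjusted p = 0.00342) and with lin-28(0) at 1 to 3 h left out. Taking all terms of the genotype curve together, a difference at any time was called for 26.9% of strands and for miR-61-3p (adjusted p = 0.0042), but not for miR-44/45-3p (0.0924) or miR-247-3p (0.177). The call for miR-61-3p over all terms did not pass with the hour as a block (adjusted p = 0.0199), total counts (0.0105), limma (0.0182) or 4 spline components (0.0229), nor without the lin-28(0) library of 1 or 22 h or the WT library of 23 h (adjusted p up to 0.0267).

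Over 0 to 7 h, miR-44/45-3p averaged 25390 ± 8242 CPM in lin-28(0) and 29522 ± 11453 CPM in WT (SD, n = 8 hours each), and miR-61-3p averaged 11574 ± 2647 CPM in lin-28(0) and 12731 ± 3494 CPM in WT. Neighbouring hours differed widely in this window. At 0 h, miR-44/45-3p was at 16843 CPM in lin-28(0) and 10152 CPM in WT, whereas at 2 h it was at 15190 CPM in lin-28(0) and 35099 CPM in WT, the widest gap of any hour. The fitted differences were -0.27 ± 0.12 for miR-44/45-3p (adjusted p = 0.0737), -0.15 ± 0.09 for miR-61-3p (0.219) and 0.19 ± 0.32 for miR-247-3p (0.740), so 0 of 3 passed beside 20.0% of strands. By an unadjusted p under 0.05 there was 1, and DESeq2 with the same design called 0. Leaving out the WT library of 0 h or of 5 h brought both miR-44/45-3p (to as low as -0.45) and miR-61-3p (to as low as -0.30) past the threshold, and with lin-28(0) at 1 to 3 h left out miR-61-3p was at -0.42 (adjusted p = 0.00914).

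Over 8 to 15 h, around the crest, miR-44/45-3p averaged 45059 ± 7931 CPM in lin-28(0) and 42828 ± 8029 CPM in WT, and miR-61-3p 16966 ± 1500 CPM in lin-28(0) and 19544 ± 1314 CPM in WT. miR-61-3p was lower in lin-28(0) in 7 of 8 hours and miR-44/45-3p higher in 6 of 8. The fitted differences of 0.09 ± 0.11 for miR-44/45-3p (adjusted p = 0.771), -0.18 ± 0.09 for miR-61-3p (0.309) and -0.14 ± 0.28 for miR-247-3p (0.853) did not pass, in a window in which 2.86% of strands did (0 of 3 at an unadjusted p under 0.05, and 0 by DESeq2).

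Over 16 to 23 h, miR-61-3p averaged 14962 ± 1543 CPM in lin-28(0) and 17915 ± 1863 CPM in WT. It fell by 0.39 on the log2 scale in lin-28(0) (SE 0.09, interval -0.57 to -0.21, adjusted p = 0.00209), which is 76.3% of WT, and was lower in 6 of 8 hours. At 23 h it was at 12541 CPM in lin-28(0) and 18945 CPM in WT, its widest gap. miR-44/45-3p, at 32074 ± 5480 CPM in lin-28(0) and 35366 ± 6899 CPM in WT, had a difference of -0.21 ± 0.12 (adjusted p = 0.217), and miR-247-3p one of -0.61 ± 0.21 (0.0378). Thus 1 of 3 passed beside 8.16% of strands, of which 8 were higher and 12 lower in lin-28(0). Scaled by total counts alone, 17 were higher and 8 lower, and with limma 16 were higher and 7 lower. The late call for miR-61-3p held with the hour as a block (adjusted p = 0.0071). It was lost, with values as small as -0.27 and adjusted p up to 0.0244, on leaving out the lin-28(0) library of 1, 2 or 23 h or the WT library of 0, 5, 7 or 23 h, and with lin-28(0) at 1 to 3 h left out it was -0.26 (adjusted p = 0.0181). In all it was lost in 7 of 16 other settings, among them total counts (-0.28, adjusted p = 0.0129) and limma (-0.28, 0.0208). It was also lost with the hours of lin-28(0) moved by 2 h (-0.26, 0.0205) or -2 h (-0.31, 0.0188). With those hours divided by 1.12, the factor that best aligned the strands of both genotypes, it was -0.14 (0.477). Moved or divided hours were fitted only where both genotypes still had hours. With -2 h and with 1.12 the window thus ended before 23 h, the hour of the widest gap. How far the lost hours themselves changed these values is not given here.

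**Figure D3:**
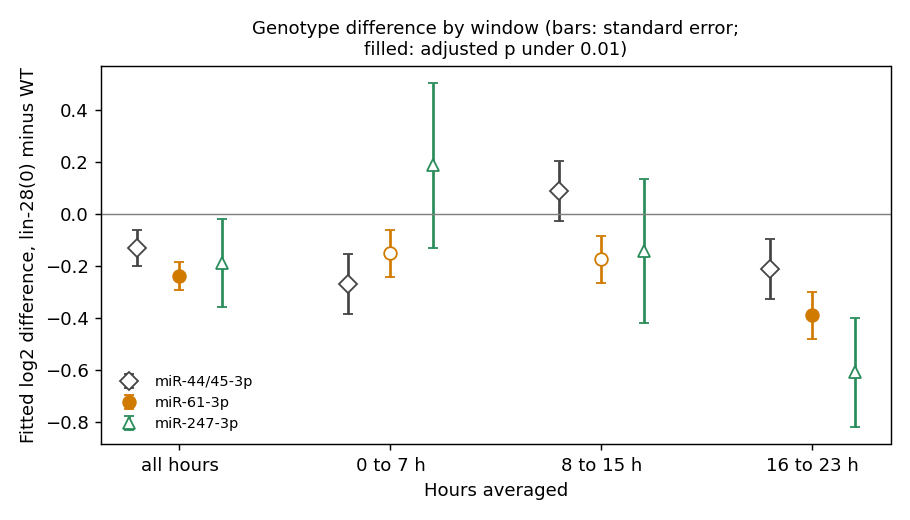
Fitted log2 difference, lin-28(0) minus WT (vertical axis), of miR-44/45-3p, miR-61-3p and miR-247-3p over all hours and in the windows of 0 to 7, 8 to 15 and 16 to 23 h (horizontal axis), with SE bars and filled points for an adjusted p under 0.01. The filled points are those of miR-61-3p over all hours (-0.24) and at 16 to 23 h (-0.39).

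The window differences were then compared with one another. From 0 to 7 h to 16 to 23 h the difference moved by 0.06 ± 0.16 for miR-44/45-3p (adjusted p = 0.833), by -0.24 ± 0.13 for miR-61-3p (0.181) and by -0.79 ± 0.38 for miR-247-3p (0.130), beside 6.53% of strands called. From 0 to 7 h to 8 to 15 h it moved by 0.36 ± 0.16, -0.02 ± 0.12 and -0.33 ± 0.40 for miR-44/45-3p, miR-61-3p and miR-247-3p (adjusted p of 0.138, 0.942 and 0.657, beside 4.49% called), and from 8 to 15 h to 16 to 23 h by -0.30 ± 0.16, -0.21 ± 0.12 and -0.47 ± 0.34 (adjusted p of 0.516, 0.583 and 0.747, beside 0.408% called). In these tests 0 of 3 passed (1, 1 and 0 at an unadjusted p under 0.05, and 0 by DESeq2), so the late fall of miR-61-3p was not shown to be particular to the late hours. Without the WT library of 0 h or of 5 h the change of miR-44/45-3p into the middle window passed, at up to 0.52 (adjusted p down to 0.00813).

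The make-up of the family moved with the hours too. miR-44/45-3p stood at 2.32 ± 0.418 times miR-61-3p in lin-28(0) and 2.16 ± 0.455 times in WT (SD, n = 24). At 8 to 15 h the ratio was 2.65 ± 0.355 in lin-28(0) and 2.20 ± 0.445 in WT, at 0 to 7 h 2.18 in lin-28(0) and 2.25 in WT, and at 16 to 23 h 2.13 in lin-28(0) and 2.01 in WT. The ratio was highest at 10 h in lin-28(0), 3.32, and at 18 h in WT, 2.88, both near a crest of miR-44/45-3p. These ratios are descriptions, with no test.

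By the fitted values, all 3 rose over the 24 hours in both genotypes. The adjusted p-values in this paragraph come from a test of all time terms of a genotype's curve together. They thus call any change over the hours, a crest included, and the rise between the first and last hours was not tested by itself. From the mean of 0 to 3 h to that of 20 to 23 h the fitted log2 change of miR-44/45-3p was 0.77 ± 0.16 in lin-28(0) (adjusted p = 1.9e-08) and 0.66 ± 0.16 in WT (2.6e-05), and that of miR-61-3p was 0.70 ± 0.13 in lin-28(0) (7.4e-07) and 1.00 ± 0.13 in WT (1.6e-07). miR-247-3p rose by 4.23 ± 0.35 in lin-28(0) (1.1e-15) and by 5.23 ± 0.38 in WT (1.8e-17). Most strands changed over time, 79.6% in lin-28(0) and 72.2% in WT, with median changes of -0.09 in lin-28(0) and -0.10 in WT, so a call as such is common. The size of the rise of miR-247-3p was less so: 18 of the other strands rose more in lin-28(0) and 13 in WT.

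miR-247-3p was at the edge of detection in the first 12 hours and came up from 12 h. Summed over 0 to 11 h it had 118 counts in lin-28(0), or 0.972 CPM (exact Poisson 95% interval 0.805 to 1.16), and 111 counts in WT, or 1.01 CPM (0.830 to 1.21). Over 20 to 23 h it had 606 counts in lin-28(0), or 19.2 CPM (17.7 to 20.8), and 622 counts in WT, or 25.2 CPM (23.2 to 27.2). In the WT library of 0 h it had 0 counts, which allows up to 3 counts or 0.492 CPM, and the exact two-sided interval reached 0.605 CPM. The onset was at the same hour in both genotypes and the later steps were staggered: it stayed above 2 CPM from 12 h in both, above 5 CPM from 17 h in lin-28(0) and 14 h in WT, above 10 CPM from 20 h in lin-28(0) and 17 h in WT, and above 20 CPM from 22 h in lin-28(0) and 23 h in WT. At 16 to 23 h it averaged 14.1 ± 6.87 CPM in lin-28(0) and 19.4 ± 7.91 CPM in WT and was lower in lin-28(0) in 6 of 8 hours, a difference that did not pass (above). On dividing the hours of lin-28(0) by 1.12, the factor that best aligned the genotypes, the late difference was 0.04, over a window that then ended before 23 h. The late difference was -1.15 (adjusted p = 1.8e-05) with those hours shifted by 2 h. Dividing moves the lin-28(0) libraries to earlier hours, whereas this shift moves them to later ones, away from that alignment. With the shift 56 of all strands were called in the late window, against 20 in the main fit.

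**Figure D4:**
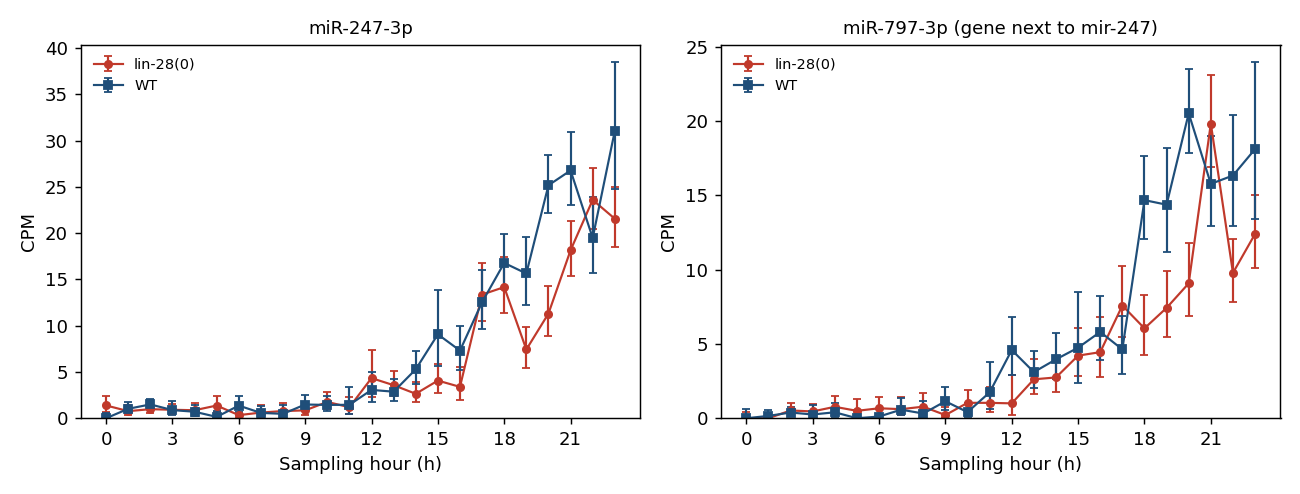
Levels of miR-247-3p and of miR-797-3p, whose gene lies next to mir-247 (CPM, vertical axes), by sampling hour (horizontal axis), 1 point per library with exact Poisson 95% intervals, for lin-28(0) and WT. miR-247-3p lies near 1 CPM until 11 h and reaches 23.6 CPM at 22 h in lin-28(0) and 31.1 CPM at 23 h in WT, and miR-797-3p reaches 19.8 CPM at 21 h in lin-28(0) and 20.5 CPM at 20 h in WT.

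miR-44/45-3p also rose and fell, and a rhythm of 9 h was called in both genotypes. Passenger strands of many larval miRNAs oscillate with the moults. The model here had cosine and sine terms over 5 to 23 h, of a period fixed at 9 h. This period is that of the let-7 passenger in these cultures and was not estimated for miR-44/45-3p. The difference of 2 rhythms is the length of the difference between their cosine and sine terms. It has no sign and takes in both peak hour and amplitude. The amplitude of miR-44/45-3p was 0.39 on the log2 scale in lin-28(0) (adjusted p = 1.1e-04), a 1.71-fold swing with fitted peaks at 10.5 and 19.5 h, and 0.25 in WT (0.0084), a 1.42-fold swing with peaks at 8.90 and 17.9 h. The libraries themselves crested at 10 h (58346 CPM), dipped at 16 h (31420 CPM) and crested again at 21 h (38777 CPM) in lin-28(0), and crested at 9 h (55565 CPM), dipped at 15 h (31843 CPM) and crested again at 18 h (46219 CPM) in WT. The fitted peak was thus 1.57 h later in lin-28(0), but the difference of the rhythms did not pass (0.35, adjusted p = 0.0314). miR-61-3p had an amplitude of 0.24 in lin-28(0) (0.0136) and 0.05 in WT (0.870), a difference of 0.23 (0.158), and miR-247-3p one of 0.12 in lin-28(0) (0.874) and 0.16 in WT (0.762), a difference of 0.22 (0.810). A rhythm was called for 18.8% of strands in lin-28(0) and 24.5% in WT, and a difference of rhythm for 12.2%, against 1, 1 and 0 of these 3 (for the difference 2 at an unadjusted p under 0.05, and 0 by DESeq2). The WT rhythm of miR-44/45-3p lay close to the threshold and did not pass without any 1 of 14 libraries, those of 7, 8, 16 or 22 h in lin-28(0) and of 5, 8, 9, 10, 15, 16, 18, 19, 22 or 23 h in WT (amplitudes down to 0.20, adjusted p up to 0.0248). The amplitude of miR-61-3p in lin-28(0) passed without the lin-28(0) library of 14 h or the WT library of 17 h (adjusted p down to 0.00548, amplitudes of 0.13 to 0.27 over all libraries left out).

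The passenger strands of the same hairpins swung more widely. miR-44-5p reached 2182 CPM at 8 h in lin-28(0), dipped to 302 CPM at 13 h and came back to 920 CPM at 19 h, and in WT it reached 2870 CPM at 8 h, dipped to 168 CPM at 12 h and came back to 939 CPM at 16 h. Its 9 h amplitude was 0.89 in lin-28(0) (adjusted p = 0.00157, fitted peak at 9.18 h) and 1.31 in WT (1.0e-04, 6.93 h). miR-45-5p had an amplitude of 0.49 in lin-28(0) (0.00587, peak at 8.04 h) and 0.72 in WT (2.0e-05, 5.47 h). The fitted peaks of both passengers came before that of the guide in each genotype, and came later in lin-28(0) than in WT. They assume the fixed 9 h period. In the libraries, the first crest of miR-44-5p was at 8 h in both genotypes and only its second was later in lin-28(0). Whether its cycle was longer or only later in lin-28(0) was not tested. Unlike the guide, the 2 passengers passed the test of a difference between rhythms, miR-44-5p with 1.58 (adjusted p = 4.8e-04) and miR-45-5p with 0.96 (1.2e-04). That passengers and guide differ in this was not tested. The rows of the 2 passengers, unlike those of the guides, did not move as 1. At 12 h in WT, where miR-44-5p dipped to 168 CPM, miR-45-5p was at 821 CPM. Over all hours miR-45-5p was at 345 to 1577 CPM in lin-28(0) and 413 to 1903 CPM in WT. Whether the reads of each passenger match 1 gene only was not checked, since mature sequences were not used.

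**Figure D5:**
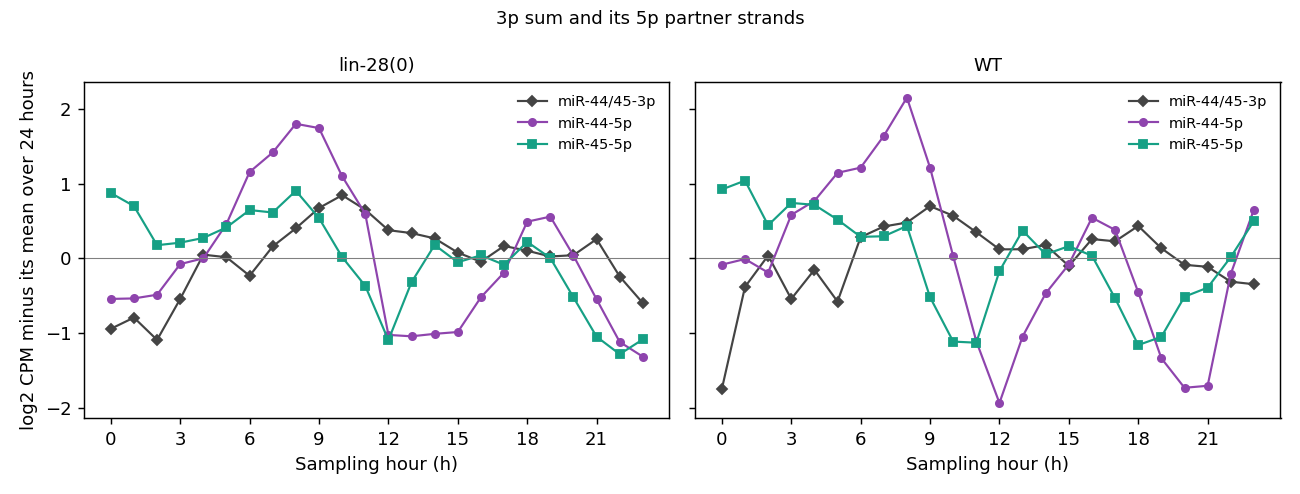
Log2 CPM of miR-44/45-3p, miR-44-5p and miR-45-5p minus each strand's own mean over 24 h (vertical axis) by sampling hour (horizontal axis), lin-28(0) on the left and WT on the right. The passengers swing more widely than the guide, with 9 h amplitudes of 0.89 and 0.49 in lin-28(0) and 1.31 and 0.72 in WT for miR-44-5p and miR-45-5p, against 0.39 in lin-28(0) and 0.25 in WT for the guide.

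The passenger of miR-61 was also lower in the late hours. miR-61-5p was at 137 to 297 CPM in lin-28(0) and 145 to 366 CPM in WT, with no rhythm called (amplitudes of 0.09 in lin-28(0) and 0.19 in WT). Over 16 to 23 h it averaged 216 ± 44.3 CPM in lin-28(0) and 273 ± 60.5 CPM in WT and fell by 0.47 on the log2 scale in lin-28(0) (SE 0.12, adjusted p = 0.00679), lower in 8 of 8 hours. With the hour as a block the late value was -0.47 with an adjusted p of 0.0189, and the call was lost on leaving out any 1 of 14 libraries, those of 1, 2, 17, 20, 21, 22 or 23 h in lin-28(0) and of 0, 5, 7, 19, 20, 22 or 23 h in WT (adjusted p up to 0.0360). It was also lost in 10 of 16 other settings, among them total counts (-0.36, adjusted p = 0.0127) and lin-28(0) at 1 to 3 h left out (-0.33, 0.0315). The same held with hours of lin-28(0) moved by -2 h (-0.13, 0.552) and with those hours divided by 1.12 (-0.02, 0.968). With the hours moved or divided in this way, the window ended before 23 h. On average over all hours its difference was -0.22 ± 0.07 (0.0203), that of miR-45-5p -0.22 ± 0.12 (0.161) and that of miR-44-5p -0.08 ± 0.15 (0.713), so 0 of the 3 passengers tested were called, beside 21.6% of all strands. By an unadjusted p under 0.05 there was 1, and DESeq2 called 1. The average of miR-61-5p passed without the WT library of 11 h (-0.24, adjusted p = 0.00624) and in 6 of 16 other settings, among them DESeq2 size factors (-0.25, 0.00547), hour 0 left out (-0.25, 0.00493) and lin-28(0) at 1 to 3 h left out (-0.29, 0.00535). That of miR-44-5p lay just above 0 without the 23 h library of either genotype (up to 0.03). miR-247-5p, with at most 0.181 CPM in lin-28(0) and 0.419 CPM in WT and 0 counts in 22 lin-28(0) and 23 WT libraries, was under the count minimum.

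Set against its guide within each library, 0 of 3 passengers passed the test between the genotypes. The log2 ratio of 5p to 3p averaged -5.70 ± 0.86 in lin-28(0) and -5.73 ± 1.17 in WT for miR-44, -5.27 ± 0.86 in lin-28(0) and -5.21 ± 1.05 in WT for miR-45 (both against the summed guide), and -6.07 ± 0.39 in lin-28(0) and -6.09 ± 0.35 in WT for miR-61 (SD, n = 24). Paired by hour, lin-28(0) minus WT was 0.03, -0.06 and 0.02 for miR-44, miR-45 and miR-61 (two-sided permutation test, 100000 resamples, adjusted p of 0.910, 0.811 and 0.820). The SDs of these hourly differences were 1.03, 0.88 and 0.34. The test is of their mean, in which gaps of opposite sign cancel, and it takes the hours as independent. For miR-44 the ratio was -5.16 in lin-28(0) and -7.20 in WT at 19 h, but -6.41 in lin-28(0) and -4.73 in WT at 23 h. Differences at single hours were not tested. Of 84 precursors with both strands tested, 8.33% passed, 4 higher and 3 lower in lin-28(0).

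By the RefSeq annotation (its assembly differs from the ce10 build of the counts, so it served for order only), mir-44 lies next to mir-43, mir-45 next to mir-42, mir-61 next to mir-250 and mir-247 next to mir-797. On their other sides the nearest miRNA genes were mir-5547, mir-5594, mir-87 and mir-266. Distance and strand were not used. The study describes miR-42, miR-43 and miR-44 as members of a cluster. Neighbouring hairpins can come from 1 primary transcript, and whether those named here do was not tested. miR-250-3p rose with miR-61-3p, by 1.03 on the log2 scale in lin-28(0) and 1.35 in WT, but its average genotype difference was -0.00 ± 0.07 (interval -0.13 to 0.13, adjusted p = 1.00), a value whose sign turned with the scaling. Its lowest, median and highest levels were 270, 591 and 815 CPM in lin-28(0) and 141, 566 and 969 CPM in WT. miR-797-3p rose with miR-247-3p, by 6.80 in lin-28(0) and 6.87 in WT, was at 9.58 ± 4.79 CPM in lin-28(0) and 13.8 ± 5.65 CPM in WT over 16 to 23 h, and had a late difference of -0.60 ± 0.21 (0.0425), close to the -0.61 of miR-247-3p. miR-797-5p, the other strand of that hairpin, rose as well, by 4.97 in lin-28(0) and 3.70 in WT. Over 16 to 23 h it averaged 6.73 ± 3.01 CPM in lin-28(0) and 6.30 ± 1.34 CPM in WT. Unlike miR-797-3p, it was higher in lin-28(0) in 5 of these 8 hours.

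The neighbours of mir-44 and mir-45 went another way. miR-43-3p, of the miR-2 family, fell over time, by 1.42 in lin-28(0) and by 1.23 in WT, and had a genotype difference of 0.31 ± 0.12 (0.0460). miR-42-3p, of the miR-35 family, had one of 0.32 ± 0.14 (0.0741), which passed with the hour as a block (0.33, adjusted p = 0.00731). miR-42-3p had fitted peaks close to those of miR-44/45-3p, at 10.4 h in lin-28(0) and 8.84 h in WT, with wider amplitudes of 0.74 in lin-28(0) and 0.70 in WT, and its difference of rhythm passed (0.76, adjusted p = 0.00126). Of the 5 neighbouring strands, all tested, 0 passed for the average genotype difference, beside 21.6% of all strands, and their median was -0.00, beside 0.03 over all strands. An unadjusted p under 0.05 was found for 2 of the 5, and DESeq2 called 0. The average of miR-43-3p passed without the WT library of 2 h (0.39, adjusted p = 0.00353).

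miR-247-3p is on the list of miRNAs that the study placed under EBAX-1 in other samples, together with miR-235-3p, miR-71-5p, miR-788-5p, miR-35-3p to miR-41-3p and miR-42-3p. Of these other 11 guides 10 were tested (miR-41-3p was under the count minimum), 5 were higher in lin-28(0) on average and 0 lower, with a median of 0.32, beside 21.6% of all strands called, 37 higher and 16 lower. miR-788-3p (-0.23, adjusted p = 0.476), first listed with them, was left out of these counts after its value was seen. With it the counts were 5 and 0 of 11 strands. The study took miR-788-5p as the guide. In these libraries miR-788-3p was the more abundant strand, at 231 CPM in lin-28(0) and 219 CPM in WT on average. miR-788-5p averaged 72.8 CPM in lin-28(0) and 72.3 CPM in WT. The 5 guides called higher were all of the miR-35 family: miR-35-3p (0.58), miR-37-3p (0.56), miR-36-3p (0.44), miR-40-3p (0.40) and miR-39-3p (0.26). With lin-28(0) at 1 to 3 h left out, where miR-35-3p was highest, 1 of the 10 was higher and the median was 0.24. miR-247-3p, at -0.19, lay within the range of the 10, and the lowest, miR-235-3p, had a value of -0.41 (adjusted p = 0.166).

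Across the 48 libraries, with each genotype centred on its own mean, the strands most like miR-44/45-3p in log2 CPM were miR-4816-5p (r = 0.84), miR-4816-3p (0.83) and miR-61-3p (0.82), of 178 candidates with at least 10 CPM on average. Those most like miR-61-3p were miR-4816-3p (0.89), miR-250-3p (0.86) and miR-44/45-3p (0.82). Those most like miR-247-3p were miR-241-5p (0.94), miR-48-5p (0.92) and miR-84-5p (0.92), the guides of the let-7 sisters, which also come up in these hours. Within the family r was 0.09 between miR-44/45-3p and miR-247-3p and 0.38 between miR-61-3p and miR-247-3p. These correlations describe libraries of 2 cultures that share the hours, the totals and the course of development, and carry no test.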

How the data were processed

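The authors trimmed the small RNA reads with QuasR, aligned them to ce10 with Bowtie (up to 100 hits a read) and counted reads whose 5′ end lay within 3 bp of an annotated miRBase v22 5′ end on the same strand. The libraries were sequenced in 3 reactions with 2 kits, and which of these the deposited counts, whole numbers per strand, hold is not given in the sources read. The authors also deposited log2 values, which equal log2(count scaled to the mean library total + 8) within 0.0005. The counts were used for all tests, and the log2 form in the limma alternative only.

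Groups and hours came from the sample labels. No 2 libraries were identical. Library totals, 2315421 to 20757531, set the precision, and intervals cover counting error only. miR-44-3p and miR-45-3p were summed. edgeR 4.0.16 (R 4.3.3) quasi-likelihood tests with TMM factors fitted a cubic spline of the hour with 6 components, genotype and their interaction to 48 libraries. The 245 strands that averaged at least 10 counts were tested, p-values were Benjamini-Hochberg adjusted over all of them, and 0.01 was the threshold. Rhythms used cosine, sine and trend terms over 5 to 23 h. Ratios of 5p to 3p (CPM + 1) were tested by sign-flip permutation, paired by hour (scipy 1.17.1). Alternatives were total-count and DESeq2 scaling, DESeq2 1.42.0, limma 3.58.1, no count minimum, other splines, periods and hours, libraries left out, and the sampling hour as a block. Shifted or divided hours of lin-28(0) were fitted only over the hours that both genotypes then covered. TMM over tested strands only was chosen after seeing the data. Same-hour libraries of both genotypes deviated together (r of 0.324 to 0.911 over 246 strands in 24 of 24 hours). The WT library of the same hour was the best match of the lin-28(0) library in only 4 of 24 hours. The pairing is thus one of sampling hour, and not of exact stage or of a shared culture. The scripts were tested on simulated data.

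The named strands are the 4 guides, their passengers, gene neighbours, the EBAX-1 list, let-7-5p as a check of the labels, cell type markers and, per guide, the 3 strands of highest r. Members and lists were chosen with earlier results of these data known. Mature sequences were not used here.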

Additional observations from a re-analysis of the deposited data

Results flagged for a closer look

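Both passenger strands of the miR-44/45 hairpins and 1 neighbour were set aside because their 9 h rhythm differed between the genotypes in the test of the difference itself. This difference takes in peak hour and amplitude together. Rhythms were not fitted with the lin-28(0) hours shifted or divided by the tempo factor, so no setting below aligned the tempo of the genotypes. The difference of the rhythms of miR-44-5p was 1.58 on the log2 scale (adjusted p = 4.8e-04), with a fitted peak at 9.18 h in lin-28(0) and 6.93 h in WT. It was 1.398 to 1.69 with 1 library left out and 1.33 with a 10 h period (adjusted p = 0.0188). That of miR-45-5p was 0.96 (adjusted p = 1.2e-04), with peaks at 8.04 h in lin-28(0) and 5.47 h in WT, and passed in all 14 other settings in which rhythms were fitted (0.87 to 1.03) and without any 1 library. That of miR-42-3p was 0.76 (adjusted p = 0.00126), with peaks at 10.4 h in lin-28(0) and 8.84 h in WT. It did not pass with an 8 h period (0.60, adjusted p = 0.0847), without the WT library of 5 h (0.64, adjusted p = 0.0133) or without that of 7 h (0.64, adjusted p = 0.0137).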

How the results depend on the processing

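The average difference of miR-61-3p was called in all 16 other settings (-0.32 to -0.16, adjusted p up to 0.00956) and without any 1 of 48 libraries, and all changes over time kept their call and direction. The replicate block (sampling hour) gave an average of -0.12 for miR-44/45-3p, -0.24 for miR-61-3p and -0.18 for miR-247-3p. It changed the call over all terms of miR-61-3p (adjusted p = 0.0199), that of the late value of miR-61-5p, that of the average of miR-42-3p and that of the late value of miR-36-3p (0.73 with the block, adjusted p = 0.00275, against 0.63, 0.0152), which were 4 of 168 genotype results compared. Total counts moved the median of all strands at 16 to 23 h to 0.14, against 0.03 with TMM.

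The shifts and the tempo factor kept only the hours that both genotypes then covered. The first window thus began after 0 h with 2 h added. The last window ended before 23 h with 2 h taken off or with the tempo factor. Adding 2 h moved lin-28(0) the opposite way to the tempo factor, and 90 strands were then called on average, against 53 in the main fit. With 2 h added to the hours of lin-28(0), the average of miR-44/45-3p (-0.19) and of miR-247-3p (-0.71) passed. Over all terms miR-44/45-3p (adjusted p = 9.0e-07) and miR-247-3p (2.4e-04) passed with this shift. So did miR-44/45-3p (-0.78) and miR-61-3p (-0.57) at 0 to 7 h and miR-247-3p at 16 to 23 h (-1.15). Late minus early was then 0.76 for miR-44/45-3p and 0.31 for miR-61-3p, and middle minus early 0.86 for miR-44/45-3p and 0.38 for miR-61-3p. With 2 h taken off, the average of miR-247-3p was 0.25, values at 0 to 7 h were 0.057 for miR-44/45-3p and 0.040 for miR-61-3p, those at 8 to 15 h were -0.073 for miR-44/45-3p and 0.55 for miR-247-3p, late minus early of miR-44/45-3p was -0.33, and middle minus early was -0.13 for miR-44/45-3p and 0.34 for miR-247-3p. With the tempo factor, miR-247-3p had 0.20 on average, 0.32 at 8 to 15 h and 0.045 at 16 to 23 h, miR-44/45-3p had -0.021 at 8 to 15 h, and middle minus early of miR-247-3p was 0.14. Late minus early of miR-61-3p was then 0.054 and late minus middle 0.087.

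Without hour 0, miR-44/45-3p passed over all terms (adjusted p = 0.00342), at 0 to 7 h (-0.43) and for middle minus early (0.51), and miR-61-3p at 0 to 7 h (-0.30). miR-247-3p was then at -0.20 at 0 to 7 h and 0.021 for middle minus early, and miR-61-3p at 0.10 for middle minus early. On dropping lin-28(0) at 1 to 3 h, and then WT at 2 h too, miR-61-3p was at -0.42 and -0.42 at 0 to 7 h, -0.26 and -0.26 at 16 to 23 h, 0.16 and 0.17 for late minus early, and 0.24 and 0.24 for middle minus early. Over all terms miR-61-3p did not pass with total counts (adjusted p = 0.0105), limma (0.0182) or 4 spline components (0.0229), and at 16 to 23 h not with total counts (-0.28), limma (-0.28), shifts of 2 h (-0.26) and -2 h (-0.31) or the tempo factor (-0.14). Late minus early of miR-44/45-3p was -0.0019 with TMM over tested strands only. The rhythm of miR-44/45-3p did not pass in lin-28(0) with an 8 h period (0.32), nor in WT with no count minimum (0.25), periods of 8 h (0.22) and 10 h (0.24) or hours 8 to 23 (0.18). The average of miR-250-3p was above 0 with total counts (0.041), limma (0.055), the rows apart (0.012), without lin-28(0) 1 to 3 h (0.0065), also without WT 2 h (0.027), let-7 left out (0.025), the block (0.012), a shift of -2 h (0.11) and the tempo factor (0.073). The causes of these changes were not tested.

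With 1 library left out, values over all terms were adjusted p of 0.00598 to 0.188 for miR-44/45-3p and 0.00162 to 0.0267 for miR-61-3p. At 0 to 7 h they were -0.45 to -0.16 for miR-44/45-3p, -0.30 to -0.11 for miR-61-3p and -0.17 to 0.42 for miR-247-3p, and at 16 to 23 h -0.43 to -0.27 for miR-61-3p. Late minus early was -0.062 to 0.34 for miR-44/45-3p and -0.29 to 0.032 for miR-61-3p, and middle minus early 0.25 to 0.52 for miR-44/45-3p, -0.089 to 0.11 for miR-61-3p and -0.51 to 0.0089 for miR-247-3p. Rhythm amplitudes were 0.13 to 0.27 for miR-61-3p in lin-28(0) and 0.20 to 0.28 for miR-44/45-3p in WT, and averages -0.12 to 0.035 for miR-44-5p and -0.024 to 0.042 for miR-250-3p. Depth limited miR-247-3p before 12 h, where single libraries held 0 to 31 counts.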
